A study of Mus musculus with 5 samples.

Results

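The 97 genes described here encode the nuclear subunits of the mitochondrial respiratory chain and of ATP synthase, together with assembly factors that share their names. They were chosen by symbol, as all genes on the array whose platform annotation starts with Nduf, Sdha, Sdhb, Sdhc, Sdhd, Uqcr, Cox4, Cox5, Cox6, Cox7, Cox8 or Atp5. The symbol rule used no expression value, but it was set with earlier results of these data known. They are 97 of the 19505 gene symbols on the array, each with 1 probe set. The tumours were subcutaneous melanomas grown from B16.F10 luc+GFP+ cells, a mouse melanoma line that carried luciferase and green fluorescent protein, in wildtype C57BL/6 mice aged 10 weeks. All 5 mice received the checkpoint antibody anti-PD-1 on days 1, 4 and 8. Of these, 2 also received oral vehicle (corn oil with 5% DMSO) and 3 received oral RG7112, a small molecule that keeps MDM2 from binding p53. Oral dosing was every 2 days for 6 days, and tumours were taken on day 13. The vehicle tumours carry the numbers 3 and 4 and the RG7112 tumours 1, 2 and 3. No group without anti-PD-1 was analysed here, so each difference below is RG7112 against vehicle in mice that all had the antibody. The tumour samples mix melanoma cells with immune cells from the host, and in such bulk RNA fewer cells of a type and less RNA per cell cannot be told apart.

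The respiratory chain lies in the mitochondrial inner membrane. Complexes I and II pass electrons from NADH and succinate to ubiquinone, complex III passes them on to cytochrome c, and complex IV to oxygen, while complexes I, III and IV pump protons whose return drives ATP synthesis by complex V. Most subunits are encoded in the nucleus and a few in mitochondrial DNA, and the transcription factors NRF1 and GABPA and the coactivator PGC-1alpha are known regulators of the nuclear set.

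No respiratory chain gene passed the test. In limma, with Benjamini-Hochberg adjustment over all 22203 probe sets and a call at adjusted p under 0.05, 0 of the 97 genes were higher and 0 lower in RG7112 tumours, whereas 1.42% of all probe sets were called higher and 0.0315% lower. The smallest adjusted p among the 97 was 0.511. At an unadjusted p under 0.05, 0 genes were higher and 1 lower (Cox4i2), against 4.83% and 4.06% of all probe sets. Of the 5551 probe sets with a mean signal at or above the 75th percentile, 247 were higher and only 56 lower at that p. Differences on the log2 scale ran from -0.41 to 0.30 with a median of -0.055, and the median over all probe sets was -0.027. Of the 97 differences, 63 were below 0 and 34 above, so that 64.9% were negative against 55.2% of all probe sets. Among probe sets with a mean signal at or above the 75th percentile 44.5% were negative, and their median was 0.021. After a further quantile normalization 73 were below 0.

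A p that misses the threshold does not show that expression was equal, so the width of the intervals matters. For all 97 genes the 95% confidence interval of the difference, not adjusted for the number of genes, lay within 1 of 0 on the log2 scale, that is within 2-fold in either direction, as for 95.9% of all probe sets. For 57 genes (58.8%) it lay within 0.5, or 1.41-fold, against 40.9% of all probe sets and 53.0% of those at or above the 75th percentile of mean signal. Standard errors ran from 0.15 to 0.26 with a median of 0.17; below, values after ± are standard errors of a difference between 2 vehicle and 3 RG7112 tumours. The groups did not overlap for 8 genes with RG7112 higher (8.25%, against 10.8% of all probe sets) and for 12 with RG7112 lower (12.4%, against 14% of all probe sets). Among probe sets with a mean signal at or above the 75th percentile these shares were 13.9% and 8.34%.

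**Figure D1:**
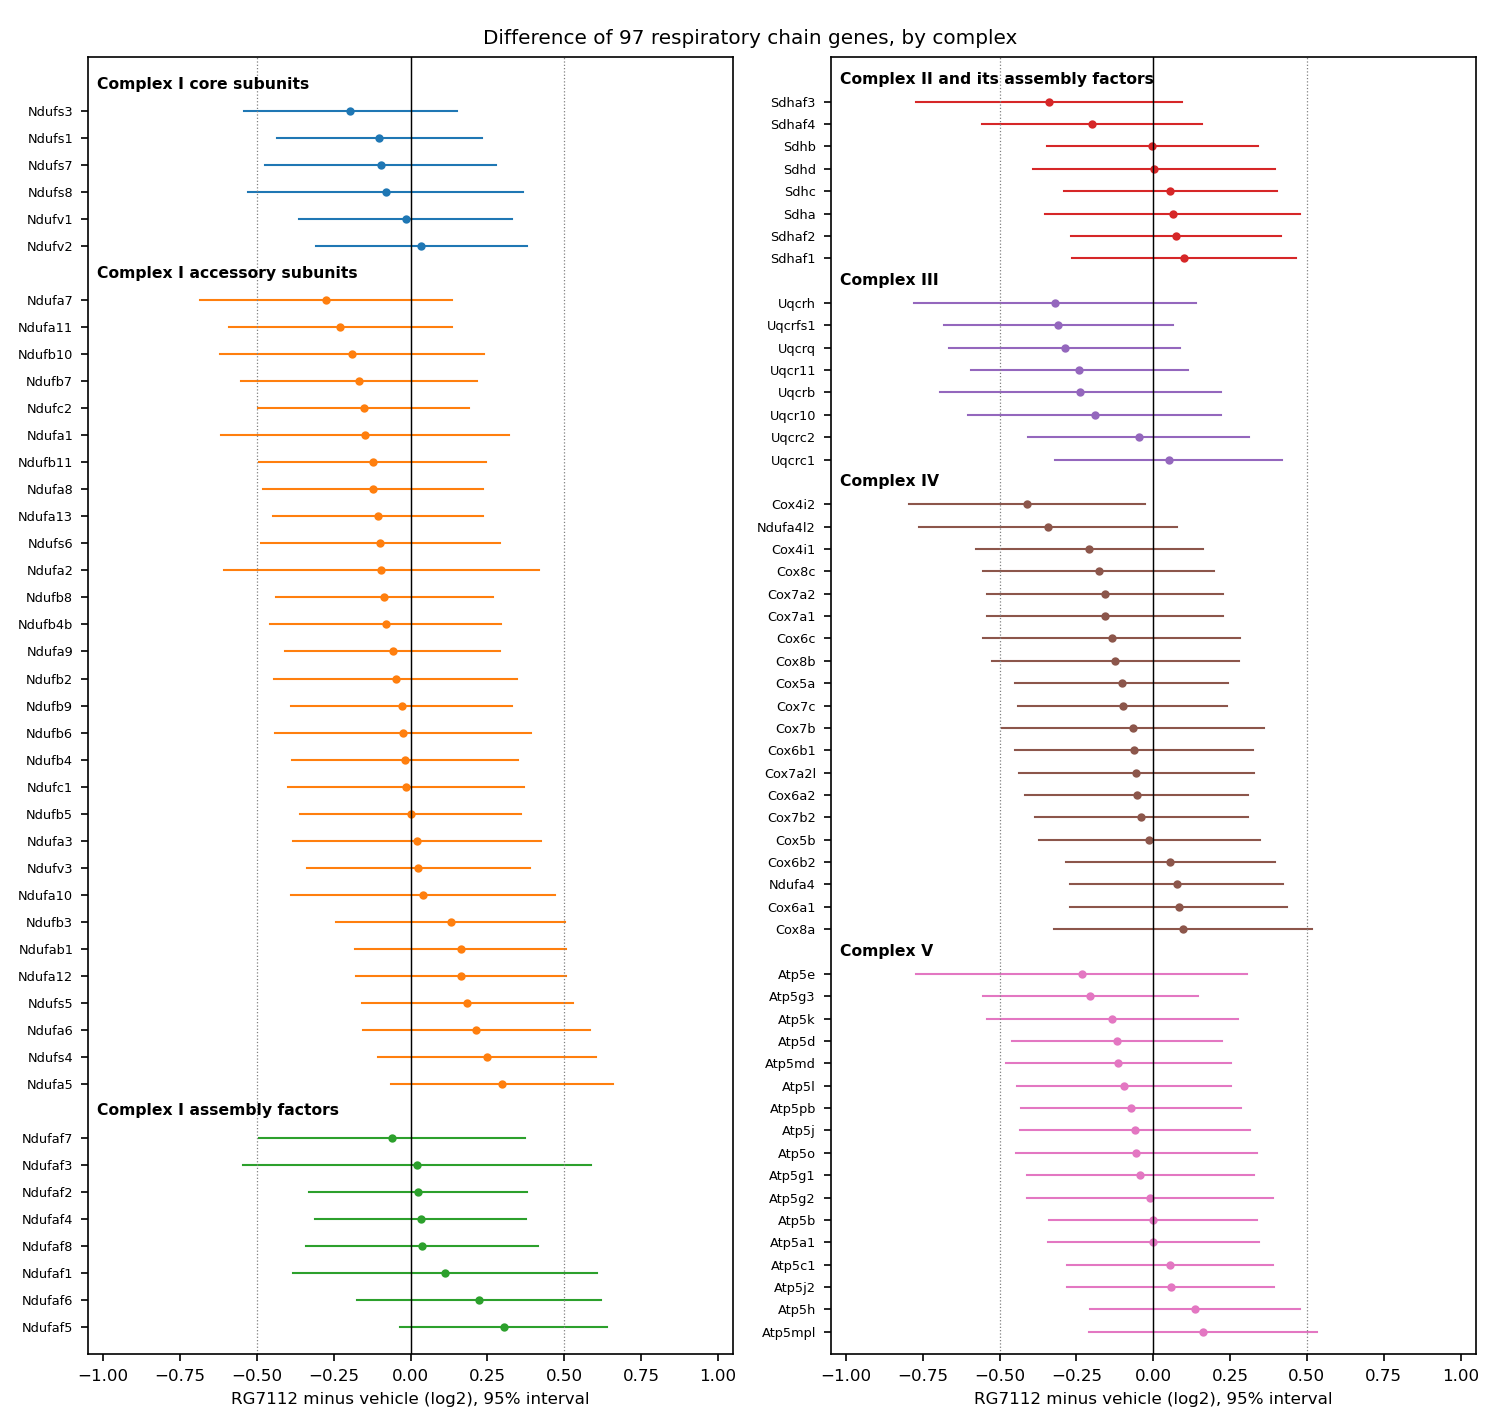
Difference between RG7112 and vehicle tumours (log2, horizontal axis) for each of the 97 genes, with points for the limma estimate and lines for its 95% interval, grouped by complex; dotted lines mark 0.5 either side of 0. All intervals lie between -1 and 1, and the interval of Cox4i2 is the only one that does not include 0.

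The 5 tumours did not vary alike. Relative to the vehicle mean, the average of the 97 genes stood at 0.025 in vehicle replicate 3 and -0.025 in vehicle replicate 4. It was 0.011 in RG7112 replicate 1, -0.18 in RG7112 replicate 2 and 0.017 in RG7112 replicate 3. Thus 2 of the 3 RG7112 tumours lay between the vehicle tumours, and the third lay below all others. RG7112 replicate 2 gave the lowest of the 5 values for 55 of the 97 genes (56.7%), against 21.0% of all probe sets and 28.1% of those with a mean signal at or above the 75th percentile. RG7112 replicate 3 was lowest for 16 genes, vehicle replicate 4 and RG7112 replicate 1 for 9 each and vehicle replicate 3 for 8. Without RG7112 replicate 2 the median difference of the 97 genes was 0.034 and 41 were below 0, so the sign of the median rested on that tumour. The average over all probe sets was -0.013 in RG7112 replicate 2 relative to the vehicle mean. For probe sets at or above the 75th percentile of mean signal it was 0.11 in RG7112 replicate 1. In RG7112 replicates 2 and 3 it was 0.0015 and 0.033. The arrays were thus not level at high signal, and RG7112 replicate 1 too had respiratory chain values below that average.

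**Figure D2:**
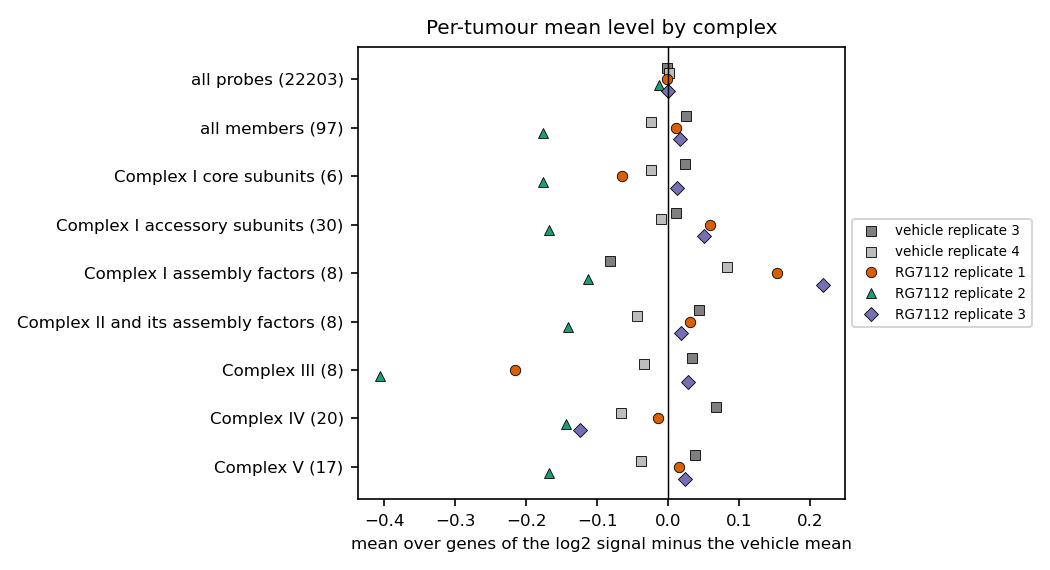
Mean log2 signal of each complex in each of the 5 tumours, relative to the mean of the 2 vehicle tumours (horizontal axis); numbers in brackets count genes or probe sets and each symbol is 1 tumour. RG7112 replicate 2 (triangle) is the lowest tumour in every complex, at -0.41 for complex III and between -0.18 and -0.11 for the other complexes.

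Some promoters of these genes hold sequence motifs, which the choice by symbol did not use. The RefSeq promoter table of GRCm38.p6 holds 250 bases before to 50 bases after a gene's start, and it matched 81 of the 97 genes by gene identifier. The NRF1 core GCGCANGCG, searched on both strands like the motifs that follow, was in the promoters of 24 of these 81 genes (29.6%), against 10.2% of the 15691 genes of the array with a promoter in the table. The ETS core CCGGAAGT, which GABPA binds, was in 5 (6.17%, against 5.88%). The YY1 motif AAGATGGCG was in 8 (9.88%, against 2.23%), and the ERR motif TCAAGGTCA was in 2 (2.47%, against 0.351%). A match is a description of the letters and no evidence of binding. Below, 1 promoter for each complex shows where such a match lies before the start, as 200 bases on the gene's strand that end just before it. Capitals mark the NRF1 core on either strand, or the ETS core for Uqcr11. A palindromic NRF1 site matches on both strands, and its overlapping matches are shown as 1 run. All 5 genes lie on the minus strand.
Ndufa5, complex I, chr6:24527691-24527890: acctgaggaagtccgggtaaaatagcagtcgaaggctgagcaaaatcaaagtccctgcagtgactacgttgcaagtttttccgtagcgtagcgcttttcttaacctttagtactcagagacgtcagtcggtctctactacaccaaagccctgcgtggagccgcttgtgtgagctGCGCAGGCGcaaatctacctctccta
Sdha, complex II, chr13:74350241-74350440: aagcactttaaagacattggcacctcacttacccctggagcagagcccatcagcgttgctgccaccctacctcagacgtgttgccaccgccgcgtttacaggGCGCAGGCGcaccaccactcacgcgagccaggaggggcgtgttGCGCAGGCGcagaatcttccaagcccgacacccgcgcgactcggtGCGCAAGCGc
Uqcr11, complex III, chr10:80406822-80407021: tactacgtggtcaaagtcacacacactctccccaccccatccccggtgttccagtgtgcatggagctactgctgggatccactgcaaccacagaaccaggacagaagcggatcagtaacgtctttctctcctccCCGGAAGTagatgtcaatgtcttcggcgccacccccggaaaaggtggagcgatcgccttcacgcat
Cox6a1, complex IV, chr5:115348959-115349158: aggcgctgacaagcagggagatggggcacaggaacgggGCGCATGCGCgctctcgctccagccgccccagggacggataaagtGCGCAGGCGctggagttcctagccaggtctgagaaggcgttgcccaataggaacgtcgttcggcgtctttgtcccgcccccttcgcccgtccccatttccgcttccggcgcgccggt
Atp5g2, complex V, chr15:102671048-102671247: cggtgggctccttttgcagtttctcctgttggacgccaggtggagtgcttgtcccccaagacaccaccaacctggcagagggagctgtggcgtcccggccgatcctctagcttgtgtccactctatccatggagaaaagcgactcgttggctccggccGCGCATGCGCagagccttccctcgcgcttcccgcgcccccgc
In Sdha the NRF1 core occurs at 3 sites, which begin 98, 55 and 10 bases before the start, and in Cox6a1 at 2 sites, 162 and 117 bases before it. In Uqcr11 the ETS core begins 66 bases before the start, and an NRF1 core that begins 5 bases before it runs past the printed stretch. The expression differences of these 5 genes were 0.30 ± 0.16 (SE) for Ndufa5, 0.063 ± 0.19 for Sdha, -0.24 ± 0.16 for Uqcr11, 0.083 ± 0.16 for Cox6a1 and -0.0092 ± 0.18 for Atp5g2, and none passed the limma test.

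Complex I was measured through 6 core subunits, which belong to the catalytic core, 30 accessory subunits, and 8 Ndufaf assembly factors. The core subunits had a median difference of -0.090, and 5 of 6 were below 0. Ndufs1, the largest iron-sulfur subunit, read 10.03 and 10.00 with vehicle and 9.97, 9.91 and 9.87 with RG7112. These ranges did not overlap, but the difference was only -0.10 ± 0.15 (SE; 95% interval -0.43 to 0.23; adjusted p = 0.921 in limma). Ndufv1, which binds NADH, differed by -0.016 ± 0.16. Among the other core subunits, Ndufs3 differed by -0.20 ± 0.16 with RG7112 tumours all lower, Ndufs7 by -0.098 ± 0.17 and Ndufs8 by -0.082 ± 0.20.

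The 30 accessory subunits had a median difference of -0.039, with 11 above 0 and 19 below. Ndufa5, an accessory subunit of the arm that protrudes into the matrix, read 8.99 and 8.65 with vehicle and 9.13, 9.13 and 9.08 with RG7112. The RG7112 tumours were all higher, by 0.30 ± 0.16 (95% interval -0.063 to 0.66; adjusted p = 0.677 in limma). Ndufs4, whose loss causes Leigh syndrome, read 7.95 and 8.00 against 8.33, 8.05 and 8.29, again with no overlap, and differed by 0.25 ± 0.16. In the opposite direction, Ndufa11 of the membrane arm read 9.17 and 9.17 against 9.13, 8.78 and 8.92, a difference of -0.23 ± 0.16, and Ndufa7 differed by -0.28 ± 0.19 with overlapping groups. The other accessory subunits whose groups did not overlap were Ndufs5, Ndufa12 and Ndufab1, the mitochondrial acyl carrier protein, with differences from 0.16 to 0.18 in favour of RG7112, and Ndufc2 and Ndufb11, with -0.15 and -0.12 (named after their values were seen). Ndufb4 and Ndufb4b are near-identical copies, and their probe sets, with -0.019 and -0.081, may read each other's RNA.

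The 8 assembly factors of complex I, which build the enzyme without staying in it, had a median difference of 0.034, and 7 were above 0. Ndufaf5, which modifies the core subunit Ndufs7 by hydroxylation, read 6.71 and 6.60 with vehicle and 6.97, 7.01 and 6.89 with RG7112. Its groups did not overlap, with a difference of 0.30 ± 0.15 (95% interval -0.033 to 0.64; adjusted p = 0.627 in limma). The other factors overlapped between groups, among them Ndufaf6 with 0.22 ± 0.18, Ndufaf1 with 0.11 ± 0.22 and Ndufaf7, a methyltransferase, with -0.060 ± 0.20. The median of the 8 was -0.015 after quantile normalization and -0.052 without RG7112 replicate 3, so its sign was not stable.

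Complex II, succinate dehydrogenase, also belongs to the citric acid cycle. Its 4 subunits had differences between -0.0025 and 0.063, and all 4 intervals lay within 0.5 of 0. Sdha, the flavoprotein that oxidizes succinate, read 7.93 and 7.65 with vehicle and 7.91, 7.57 and 8.07 with RG7112, so the RG7112 values reached to both sides of the vehicle values. Sdhb, the iron-sulfur subunit, differed by -0.0025 ± 0.16 (95% interval -0.34 to 0.34). Of the assembly factors, Sdhaf3, which helps to mature Sdhb, had the largest difference, with 6.97 and 6.52 against 6.61, 6.14 and 6.45, or -0.34 ± 0.20 (adjusted p = 0.693 in limma), and its groups overlapped. Sdhaf4, which assists Sdha, differed by -0.20 ± 0.16 with RG7112 tumours all lower, at a signal below the array medians. Sdhaf1 and Sdhaf2, which serve the iron-sulfur and flavin subunits, differed by 0.10 ± 0.17 and 0.074 ± 0.15.

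Complex III had the most negative median of the 7 groups of genes, at -0.24, with 7 of its 8 genes under the symbol rule below 0. It was also the complex in which the RG7112 tumours disagreed most. Relative to the vehicle mean, its average was -0.22 in RG7112 replicate 1, -0.41 in RG7112 replicate 2 and 0.028 in RG7112 replicate 3, while the vehicle tumours were at 0.034 and -0.034. RG7112 replicate 2 was the lowest of the 5 tumours for 7 of the 8 genes. Uqcrfs1, the Rieske iron-sulfur protein that passes electrons towards cytochrome c, read 9.42 and 9.42 with vehicle and 9.18, 8.88 and 9.27 with RG7112. All RG7112 tumours were lower, by -0.31 ± 0.17 (95% interval -0.68 to 0.064; adjusted p = 0.674 in limma), and its difference lay between -0.39 and -0.19 over all settings tried. Uqcr11, a small subunit, read 7.21 and 7.22 against 7.005, 6.82 and 7.11, without overlap, and differed by -0.24 ± 0.16.

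The remaining complex III genes under the symbol rule overlapped between groups. Uqcrh, the hinge protein that binds cytochrome c1, read 11.02 and 10.84 with vehicle and 10.60, 10.25 and 10.98 with RG7112. Its difference was -0.32 ± 0.21, and RG7112 replicate 3 was as high as the vehicle tumours. Uqcrq, a small ubiquinone-binding subunit, differed by -0.29 ± 0.17. The large core protein Uqcrc1 differed by 0.050 ± 0.17 and its partner Uqcrc2 (named after its values were seen) by -0.048 ± 0.16. The median of complex III was -0.13 without RG7112 replicate 2 and -0.36 without RG7112 replicate 3, and it was negative under all settings tried.

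Complex IV, cytochrome c oxidase, was measured through 20 genes, with 4 differences above 0, 16 below and a median of -0.083. Several of its subunits exist as paralogs that differ between tissues. The 12 general subunits had a median of -0.064, with 9 below 0. The 8 isoforms of particular tissues or conditions had a median of -0.14, with 7 below 0, and 7 of these 8 lay below the array medians. Cox4i2, the isoform of subunit 4 known from lung and from hypoxia, had the smallest p of all 97 genes. It read 5.33 and 4.89 with vehicle and 4.73, 4.62 and 4.75 with RG7112, so all RG7112 tumours were lower, but the vehicle tumours differed from each other by more than the RG7112 tumours did. Its difference was -0.41 ± 0.17 (95% interval -0.79 to -0.026; adjusted p = 0.511 in limma), and it was -0.19 without vehicle replicate 3 and -0.63 without vehicle replicate 4. Cox4i1, the general isoform, read 10.11 and 9.95 against 9.71, 9.73 and 10.02, with overlap, and differed by -0.21 ± 0.17. The change of Cox4i2 relative to Cox4i1 within each tumour was -0.20, and the groups overlapped.

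Ndufa4, named as a complex I gene but a subunit of complex IV, read 11.12 and 11.13 with vehicle and 11.29, 11.06 and 11.25 with RG7112, a difference of 0.076 ± 0.16. Its paralog Ndufa4l2, known as a gene induced by hypoxia, read 5.59 and 5.14 against 5.25, 4.87 and 4.95, a difference of -0.34 ± 0.19 (adjusted p = 0.684 in limma) with overlapping groups. Relative to Ndufa4 within each tumour, Ndufa4l2 differed by -0.42 and the groups did not overlap. The same held for Cox8b relative to Cox8a, by -0.22, and for none of the other 9 within-tumour comparisons of paralogs. Single probe sets had non-overlapping groups at 14% lower and 10.8% higher over the whole array, and both Ndufa4l2 and Cox8b lay below the array medians.

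The isoforms typical of heart and skeletal muscle differed by -0.055 ± 0.17 (Cox6a2), -0.16 ± 0.17 (Cox7a1) and -0.12 ± 0.18 (Cox8b), and those known from testis by 0.056 ± 0.15 (Cox6b2), -0.039 ± 0.16 (Cox7b2) and -0.18 ± 0.17 (Cox8c). Apart from Cox6a2, these isoforms and Cox4i2 and Ndufa4l2 lay below the array medians in all 5 tumours, where array signals understate differences. Subcutaneous tumours can include body wall muscle and fat. The 14 skeletal muscle markers averaged 5.86 and 6.06 with vehicle and 6.49, 6.29 and 5.24 with RG7112, with 0 called and with Myh1 (0.92 ± 0.38) and Mb (-0.20 ± 0.18) at the smallest p. The 8 adipocyte markers averaged 4.70 and 4.72 against 4.67, 5.00 and 5.42, with 1 called higher (Fabp4, a fatty acid binding protein that macrophages also make) and Adipoq next (1.10 ± 0.50). Their part in the values of these isoforms was not tested. Among general subunits, Cox5a differed by -0.10 ± 0.16, Cox5b by -0.013 ± 0.16, Cox6a1 by 0.083 ± 0.16, Cox6b1 by -0.062 ± 0.18, Cox7a2 by -0.16 ± 0.17, Cox7b by -0.066 ± 0.19 and Cox8a by 0.097 ± 0.19. Cox7a2l, a paralog of Cox7a2, differed by -0.055 ± 0.17. Cox7c had non-overlapping groups at a difference of only -0.10 ± 0.15 (named after its values were seen).

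**Figure D3:**
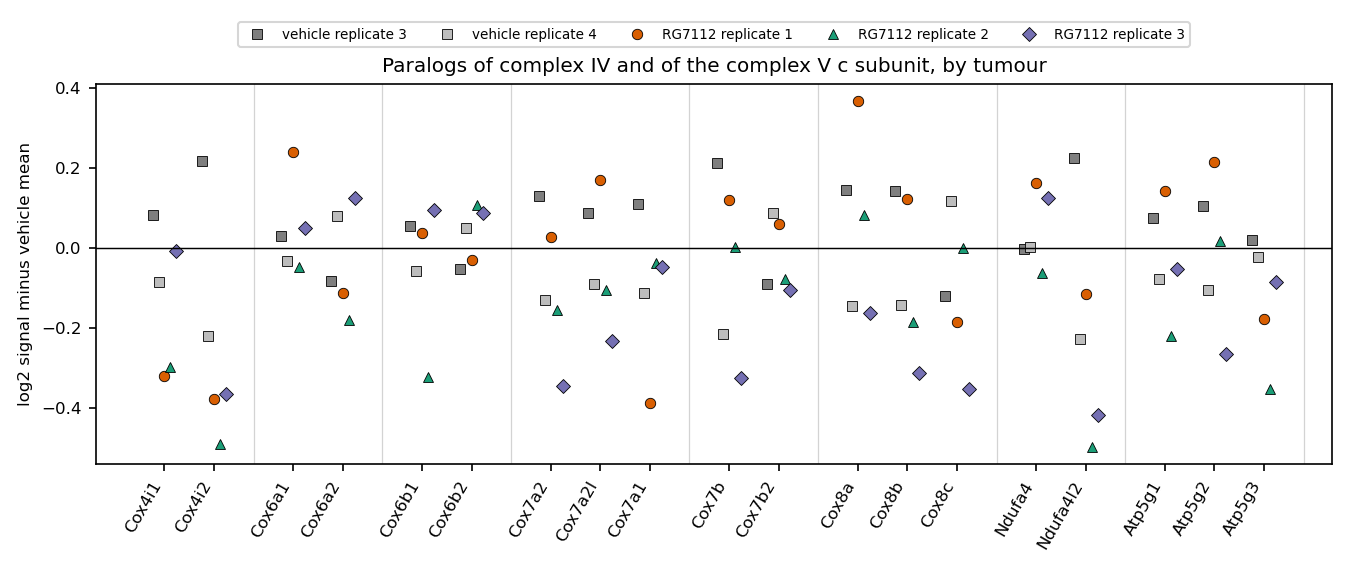
Log2 signal of paralogous genes in each of the 5 tumours, relative to the gene's mean in the 2 vehicle tumours (vertical axis); each symbol is 1 tumour and grey lines separate sets of paralogs. All 3 RG7112 tumours lie below both vehicle tumours for Cox4i2 and Atp5g3, and overlap with them for the other genes.

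Complex V, ATP synthase, was represented by 17 genes, with 5 differences above 0, 12 below and a median of -0.055. Its catalytic subunits had differences close to 0. Atp5a1, the alpha subunit, read 12.10 and 12.09 with vehicle and 12.15, 11.97 and 12.17 with RG7112, and differed by 0.00079 ± 0.16 (95% interval -0.34 to 0.35). The beta subunit Atp5b, which holds the catalytic sites, read 12.15 and 12.20 against 12.18, 12.09 and 12.26, a difference of -0.0010 ± 0.15. In both genes the RG7112 values spread to either side of the vehicle values. The 3 genes Atp5g1, Atp5g2 and Atp5g3 encode the same mature c subunit of the rotor ring. Only Atp5g3 separated the groups, with 10.82 and 10.78 against 10.62, 10.44 and 10.71, and its difference of -0.20 ± 0.16 did not pass (adjusted p = 0.805 in limma). Atp5g1 and Atp5g2 differed by -0.042 ± 0.17 and -0.0092 ± 0.18.

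Atp5e, the small epsilon subunit of the central stalk, had the largest standard error of the complex V genes. It read 7.21 and 7.32 with vehicle and 6.73, 6.77 and 7.60 with RG7112, so 2 RG7112 tumours lay below and 1 above the vehicle tumours. Its difference was -0.23 ± 0.24, and without RG7112 replicate 3 it was -0.52 (adjusted p = 0.288 in limma). Atp5mpl, a small membrane subunit, and Atp5h, the peripheral stalk subunit d, were higher in all RG7112 tumours, by 0.16 ± 0.17 and 0.14 ± 0.15, and the delta subunit Atp5d was lower in all, by -0.12 ± 0.15 (Atp5d was named after its values were seen).

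Other genes of mitochondrial energy metabolism were measured in lists outside the symbol rule. None of them had a called gene in either direction by limma at adjusted p under 0.05. The citric acid cycle and pyruvate entry list had 17 genes, 0 at an unadjusted p under 0.05 and a median difference of -0.072; Idh3a, a subunit of isocitrate dehydrogenase, differed by -0.19 ± 0.16 and Dlst by 0.15 ± 0.15. The 20 assembly factors of complex IV had 0 at that p and a median of -0.073, with Cox14 at -0.29 ± 0.17 and Coa6 at 0.21 ± 0.19. The 8 partners and assembly factors of complex III had 0 and a median of 0.020. They include Lyrm7, a chaperone of Uqcrfs1, with -0.28 ± 0.15. Cytochrome c1, Cyc1, with -0.22 ± 0.16, is in this list only because the symbol rule leaves it out, and it is itself a subunit of complex III. The 11 further assembly factors of complex I had 1 at that p, Tmem126b (0.66 ± 0.25, adjusted p = 0.396), and a median of -0.15, and Foxred1 differed by 0.34 ± 0.19. The 5 genes of complex V assembly and inhibition had 1, the chaperone Atpaf2 (0.37 ± 0.15), and a median of 0.020, and Tmem242 differed by -0.10 ± 0.16.

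Regulators and partner systems likewise held no called gene. Among 17 regulators of mitochondrial biogenesis the median was -0.0086, and the mitochondrial RNA polymerase Polrmt differed by 0.51 ± 0.21 (adjusted p = 0.471). Ppargc1a, which encodes PGC-1alpha, read between 11.1 and 11.2 with vehicle and was higher by 0.33 ± 0.16 (adjusted p = 0.606). The 28 genes of the small subunit of the mitochondrial ribosome, which makes the subunits encoded in mitochondrial DNA, had a median of 0.016, with 2 higher at an unadjusted p under 0.05, Mrps22 (0.41 ± 0.15) and Mrps27 (0.44 ± 0.18). The 22 genes of protein import and inner membrane organisation had a median of 0.015, with Timm9 at -0.27 ± 0.16 and Timm44 at -0.20 ± 0.15. The 15 glycolysis genes, the other main source of ATP, had a median of -0.014, with Pfkl, a phosphofructokinase, at -0.29 ± 0.17 and Hk2, a hexokinase, at -0.18 ± 0.17. RG7112 replicate 2 was below the vehicle mean in each of these 9 lists, by 0.028 to 0.21. For glycolysis RG7112 replicate 1 was lower still, at -0.078 against -0.061, and RG7112 replicate 2 was the lowest tumour for 2 of the 15 genes.

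Cell type markers differed between the same tumours. Of 13 macrophage and monocyte markers 9 were called higher and 0 lower by limma at adjusted p under 0.05. Aif1 (2.57 ± 0.20), Adgre1 (1.58 ± 0.18) and Ly6c2 (2.03 ± 0.26) had the smallest p. Cd163, a scavenger receptor of macrophages (named after its values were seen), was lower in all RG7112 tumours, by -0.56 ± 0.17, and did not pass (adjusted p = 0.240 in limma). The list averaged 6.75 and 6.34 with vehicle and 7.91, 7.58 and 7.69 with RG7112. All 10 T and NK cell markers had differences above 0, and 1 was called higher, Cd8b1 (0.90 ± 0.18, adjusted p = 0.0314 in limma). The next was Nkg7 (0.88 ± 0.22). All 7 endothelial markers had differences above 0, and 1 was called higher, Kdr (1.01 ± 0.19). The next was Cdh5 (0.75 ± 0.18). The 12 melanocyte lineage markers, the defining genes of this tumour, averaged 11.49 and 11.58 with vehicle and 11.63, 11.64 and 11.68 with RG7112, with 0 called and with Oca2 (0.38 ± 0.16) and Mlana (0.24 ± 0.16) at the smallest p. The 7 fibroblast markers had 0 called and a median of 0.17, with Fap (0.45 ± 0.16) and Lum (0.36 ± 0.22) first. The 7 keratinocyte markers had 0 called and a median of -0.23, with Krt14 (-0.60 ± 0.23) and Krt1 (-0.37 ± 0.18) first, and the erythroid list had 1 measured gene, Alas2 (-0.20 ± 0.17). RG7112 replicate 2, the tumour with the lowest respiratory chain values, was within the range of the other RG7112 tumours for melanocyte markers and lowest of the 3 for macrophage markers. Its fibroblast markers averaged 6.88, against 7.39 and 7.45 in the other RG7112 tumours and 7.09 and 7.01 with vehicle. In this list 7 of 7 were below both other RG7112 tumours, as were 34.2% of all probe sets. Among probe sets at or above the 75th percentile of mean signal the share was 43.8%. RG7112 replicate 2 was also lowest of the 3 for T and NK cell markers (5.02 against 5.19 and 5.18). For endothelial markers it was the highest (6.52 against 6.43 and 6.35). The lists compared here were picked after their values were seen. Whether the make-up of the tumours has a part in the respiratory chain values was not tested.

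**Figure D4:**
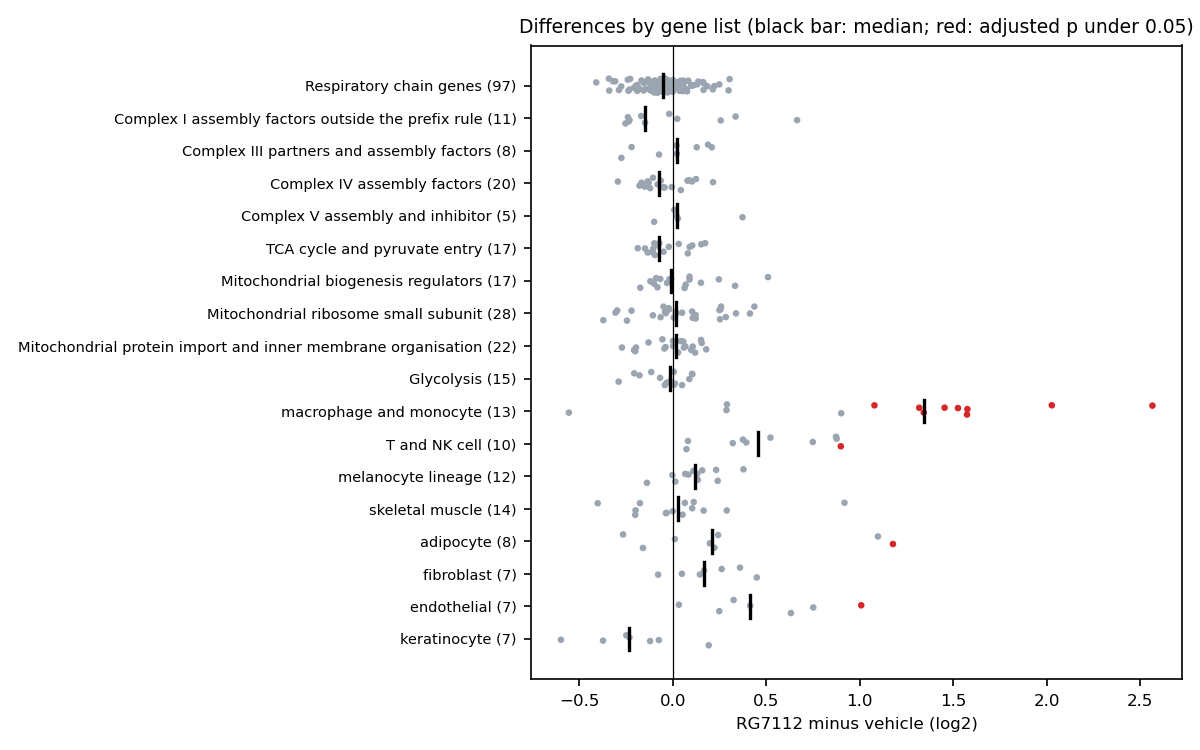
Difference between RG7112 and vehicle tumours (log2, horizontal axis) for each gene of each list, with the number of genes in brackets; black bars are medians and red points passed the limma test at adjusted p under 0.05. The respiratory chain genes and the 9 other metabolic lists have medians between -0.15 and 0.020 and no red point, while the macrophage and monocyte list has a median of 1.34 and 9 red points.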

How the data were processed

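RNA of 5 tumours was hybridised to Affymetrix Clariom S mouse arrays, 1 per tumour and mouse. The authors deposited log2 signals, made with the oligo package and RMA per the submitters' processing notes; its versions and options: not given in the sources used here. No scanner files or scan dates were used, so batches could not be examined. Of 22203 probe sets, 19572 had 1 symbol, 0 several and 2631 none; 0 columns of per-sample values were left out. All 97 members matched RefSeq by gene identifier. limma 3.58.1 in R 4.3.3 (lmFit, eBayes, 3 residual and 7.92 prior degrees of freedom) was fitted to all probe sets. The code was also run on data simulated from the fitted variances, and its recovery of small changes is not reported here. Array number limits the precision.

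The members, lists and tests were chosen with earlier results of these data known. Values are given for the 4 members with the smallest p in each of the 7 groups of genes, fixed core subunits and paralog sets, and the 2 genes with the smallest p, or up to 3 called, in each other list. Lists and complexes are described without a test. Alternatives were an intensity trend, robust variances, array weights, quantile and cyclic loess normalization, leaving out probe sets below the 40th percentile, adjusted p under 0.10, averaging probe sets of a gene, and leaving out each tumour. The NRF1 and YY1 letters searched were shortened after a first search with longer forms.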

Additional observations from a re-analysis of the deposited data

How the results depend on the processing

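The counts of 0 respiratory chain genes called higher and 0 called lower held under all alternatives, in which the smallest adjusted p of a member ranged from 0.288 to 0.841 in limma; at an unadjusted p under 0.05 at most 1 was higher and 4 lower. With vehicle replicate 3 or 4 left out, the lone vehicle tumour is assumed to vary like the others. Leaving out 1 tumour at a time, the median difference ranged from -0.091 to 0.034 for all 97 genes, -0.10 to 0.012 for complex I core subunits, -0.095 to 0.065 for its accessory subunits, -0.052 to 0.18 for its assembly factors, -0.043 to 0.050 for complex II with its factors, -0.36 to -0.13 for complex III, -0.12 to -0.017 for complex IV and -0.11 to 0.037 for complex V. Over all alternatives, 105 of 106 counts and medians were rated unchanged, the exception being the complex I core median of 0.012 without RG7112 replicate 2. A count was rated unchanged if it stayed at 0, and a median if it moved by less than the spread between tumours. A median rated unchanged could therefore change sign, as that of all 97 genes did without RG7112 replicate 2 (0.034). Averaging probe sets could change nothing, because each member has 1 probe set, and its ratings are counted among the 106. Leaving out dim probe sets altered no difference of a member that was kept. Differences of named genes moved by more than the gene's own spread between tumours for Cox4i2, Ndufa5 and Ndufs3 when a vehicle tumour was left out. No paired analysis was possible because the groups share only the number 3. The number of arrays, 2 vehicle and 3 RG7112, limits the precision.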
